A study of Mus musculus with 2 samples.

Results

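The 10 genes described here, Foxo1, Foxo3, Foxo4, Mtor, Rptor, Rictor, Mlst8, Tsc1, Tsc2 and Ddit4, were taken by name as FOXO transcription factors and core parts of the mTOR pathway. They are 10 of 69691 measured features and 10 of 21461 protein-coding nuclear genes, and all 10 were found. The study measured total RNA longer than 200 bases, with spike-in RNAs, in MEP, megakaryocyte-erythroid progenitors, the marrow cells that give rise to red cells and platelets. The primary cells came from male C57BL/6J mice aged 5 to 6 weeks, and each of the 2 libraries was made from 100 cells. The libraries, replicate 1 and replicate 2, carry separate biosample records but the same donor record, so they may not be separate animals. There was 1 group, with no treatment and no other cell type, so the data give levels and the spread between the 2 libraries, and no comparison between conditions was tested.

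FOXO factors are forkhead transcription factors that act downstream of insulin and cytokine signalling. When PI3K is active, AKT phosphorylates them, 14-3-3 proteins hold them in the cytoplasm and their targets, among them antioxidant and cell cycle genes, are less transcribed. The mTOR kinase works in complexes defined by raptor (Rptor, mTORC1, growth and translation) or rictor (Rictor, mTORC2, which phosphorylates AKT). The TSC proteins restrain mTORC1 by switching off the GTPase Rheb, and Ddit4 (REDD1) acts through TSC under stress. In mouse erythroid cells Foxo3 is known for control of antioxidant enzymes and of maturation, and mTORC1 for control of cell size and haemoglobin synthesis.

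Replicate 1 held 30016974 expected counts and replicate 2 held 51510347, of which the members took 12494 in replicate 1 and 21715 in replicate 2. Erythroid and shared MEP markers fitted the label: 8 of 8 reached 10 TPM (the length-corrected share of a gene among all transcripts) in both libraries, and Gata1 had 77.5 TPM in replicate 1 and 100.24 in replicate 2. Markers of other cells set the libraries apart. Neutrophil markers summed to 1880 TPM in replicate 1 and 6.39 in replicate 2 and were higher in replicate 1 for 8 of 8, with Ngp, Lcn2, Ltf, Elane and Mpo at 0 in replicate 2, where 0 counts allow at most 0.0301 TPM (Ltf) to 0.103 TPM (Elane). Early B cell markers summed to 7.55 TPM in replicate 1 and 127 in replicate 2 and were higher in replicate 2 for 8 of 8, with Vpreb1 at 0 in replicate 1, which allows up to 0.203 TPM. In replicate 1 and replicate 2, megakaryocyte markers summed to 19.6 and 24.8 TPM, stem and multipotent markers to 11.9 and 8.61 TPM, and T and NK markers to 50.3 and 37.9 TPM. The part of these other cells in the members' values was not tested. In bulk RNA, fewer cells of a type and less RNA per cell cannot be told apart.

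Sequences are shown for 2 places where deposited transcripts part, 1 that separates the leading Rptor transcript from the full coding one and 1 that separates the short Mtor transcript from the full one. They were read 5′ to 3′ on the plus strand from GENCODE M21 transcripts on GRCm38, the assembly also called mm10. Rptor-201, the full coding transcript of 34 exons, contains exon 10 (76 bases, chr11:119811945-119812020, in capitals in its line), which Rptor-211 skips. In the Rptor-211 line the capitals are the exon after the new junction. Because 76 leaves a remainder of 1 when divided by 3, the reading frame shifts, and the annotated coding sequence is 1161 bases in Rptor-211 against 4005 in Rptor-201. Mtor-202 is the full transcript of 58 exons and Mtor-201 a short one of 5 exons that reads into the intron after exon 5. In the Mtor-201 line (chr4:148454733-148454815) the capitals are its last 63 coding bases, which are intron in Mtor-202, and in the Mtor-202 line they are the next exon.
Rptor-201 exon 10 with 20 bases each side: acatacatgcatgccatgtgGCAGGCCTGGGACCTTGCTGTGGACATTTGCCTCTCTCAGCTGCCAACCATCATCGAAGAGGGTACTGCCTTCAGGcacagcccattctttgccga
Rptor-211 junction: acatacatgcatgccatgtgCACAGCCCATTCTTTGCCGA
Mtor-201 end of coding sequence: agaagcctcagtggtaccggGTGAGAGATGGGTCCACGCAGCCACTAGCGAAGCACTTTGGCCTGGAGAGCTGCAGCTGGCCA
Mtor-202 junction: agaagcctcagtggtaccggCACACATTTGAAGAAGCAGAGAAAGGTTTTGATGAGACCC

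All members except Ddit4 were present at 1 TPM or more in both libraries, 9 of 10 against 44.2% of protein-coding nuclear genes. Foxo3, Mtor, Rptor and Tsc2 reached 10 TPM in both, 4 of 10 against 24.7% of those genes. Counting protein-coding transcripts only, 3 members did so, without Rptor, and the share of all genes on that scale was not computed. The median member had 10.7 TPM in replicate 1 and 10.9 in replicate 2, against 0.38 TPM in replicate 1 and 0.36 in replicate 2 over all protein-coding nuclear genes. Over the 9982 such genes with a mean of at least 1 TPM the median was 11.8 TPM in replicate 1 and 13.6 in replicate 2, so the median member lay a little under that of expressed genes. By mean TPM of whole genes the order was Foxo3, then Rptor, Tsc2, Mtor, Mlst8, Tsc1 and Rictor close together, then Foxo4, Foxo1 and Ddit4. By protein-coding transcripts alone Rptor stood at rank 9, between Foxo1 and Ddit4. The comparisons that follow are of whole genes. Neighbours were taken as apart only where both libraries gave the same order and the credibility intervals deposited with the values did not overlap in either; the level of those intervals is not given in the sources used here. By that rule 4 of the 9 neighbouring pairs were apart, namely Foxo3 over Rptor, Rictor over Foxo4, Foxo4 over Foxo1 and Foxo1 over Ddit4, and 34 of all 45 pairs were apart. The 6 genes from Rptor to Rictor could not be ordered against their neighbours within that range.

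**Figure D1:**
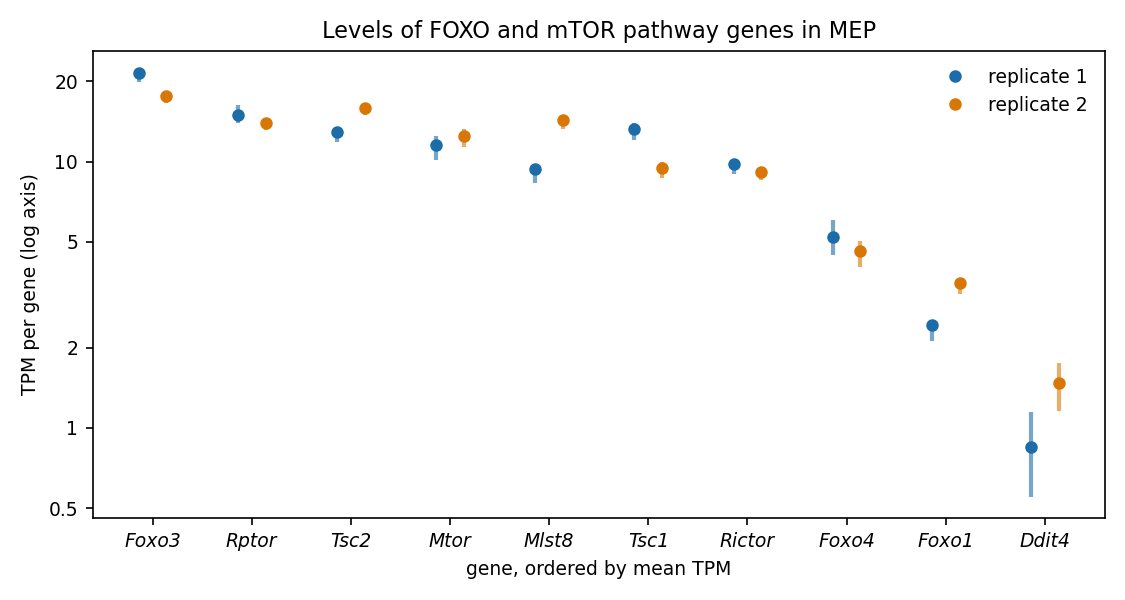
TPM of each member (log axis) in replicate 1 and replicate 2, ordered by mean; points are the deposited TPM and vertical lines the deposited credibility intervals. Foxo3 lies highest at 21.4 TPM in replicate 1 and 17.7 in replicate 2, 6 genes lie close together around 10 TPM, and Ddit4 is lowest.

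Foxo3 was the leading FOXO factor. Foxo3 (chr10:42181841-42276755, minus strand) had 21.4 TPM in replicate 1 from 3007 expected counts and 17.7 TPM in replicate 2 from 4118, a mean of 19.6 ± 2.64 (SD, n = 2). It stood at the 83.1 percentile of protein-coding nuclear genes. Replicate 1 was the higher library, and the deposited intervals, 19.9 to 21.7 TPM in replicate 1 and 16.6 to 17.9 TPM in replicate 2, did not overlap.

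Foxo4 (chrX:101254528-101260873, plus strand), a family member of much shorter gene span, had 5.19 TPM in replicate 1 from 284 counts and 4.60 TPM in replicate 2 from 497, a mean of 4.9 ± 0.417 (SD, n = 2). Its libraries overlapped within the deposited intervals of 4.45 to 6.05 TPM in replicate 1 and 4.02 to 5.03 TPM in replicate 2. Foxo1 (chr3:52268336-52353221, plus strand), which is required for B cell development in mice, had 2.43 TPM in replicate 1 from 456 counts and 3.49 TPM in replicate 2 from 1145, a mean of 2.96 ± 0.75 (SD, n = 2). Replicate 2 was higher, with intervals of 2.12 to 2.55 TPM in replicate 1 and 3.19 to 3.58 TPM in replicate 2, and it is also the library with the higher early B marker sum, 7.55 TPM in replicate 1 and 127 TPM in replicate 2; whether B lineage RNA contributed was not tested. A gene of unknown class annotated inside Foxo1 on the same strand, Gm38034, had 29 counts in replicate 1 and 114 in replicate 2. Expected counts of both genes were whole numbers in both libraries, and whether any reads given to Foxo1 came from Gm38034 was not tested.

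Within each library, Foxo3 was 8.81 times Foxo1 in replicate 1 (95% counting interval 7.99 to 9.75) and 5.07 times in replicate 2 (4.74 to 5.41). Foxo3 was 4.13 times Foxo4 in replicate 1 (3.65 to 4.68) and 3.84 times in replicate 2 (3.5 to 4.23). Foxo4 was 2.14 times Foxo1 in replicate 1 and 1.32 times in replicate 2. In protein-coding transcripts alone, Foxo4 was 1.6 times Foxo1 in replicate 1 and 1.19 times in replicate 2. On that scale Foxo3 was 5.49 times Foxo4 in replicate 1 and 4.24 times in replicate 2. These are ratios of TPM, so gene length is accounted for, and the intervals cover counting error only. Of the TPM of all transcripts of the 3 factors together, Foxo3 made up 73.8% in replicate 1 and 68.6% in replicate 2. Foxo4 made up 17.9% in both, part of it from a non-coding transcript, and Foxo1 8.37% in replicate 1 and 13.5% in replicate 2. The remaining family member, Foxo6, was listed at 0 TPM in replicate 1 and 0.01 in replicate 2; 0 counts in replicate 1 allow up to 0.055 TPM.

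The mTOR kinase gene itself, Mtor (chr4:148448611-148557683, plus strand), had 11.5 TPM in replicate 1 from 1422 counts and 12.5 TPM in replicate 2 from 3028, a mean of 12 ± 0.643 (SD, n = 2). The intervals of 10.1 to 12.5 TPM in replicate 1 and 11.3 to 13.2 TPM in replicate 2 overlapped. Mlst8 (chr17:24473551-24479078, minus strand), the subunit common to both complexes, had 9.34 TPM in replicate 1 from 662 counts and 14.3 TPM in replicate 2 from 1762, a mean of 11.8 ± 3.49 (SD, n = 2). Replicate 2 was higher and the intervals, 8.3 to 9.66 TPM in replicate 1 and 13.2 to 14.5 TPM in replicate 2, did not overlap. Mlst8 was accordingly 0.809 times Mtor in replicate 1 (0.737 to 0.888) and 1.15 times in replicate 2 (1.08 to 1.22). For whole genes, the order of kinase and common subunit thus differed between the libraries. The full transcript Mtor-202 alone had 7.23 TPM in replicate 1 and 8.94 in replicate 2, and Mlst8 was above it in both.

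As whole genes, the subunits that define the complexes differed less between the libraries than Mlst8 did. This did not hold for the protein-coding transcripts of Rptor, at 3.52 TPM in replicate 1 and 1.83 in replicate 2. Rptor (chr11:119602905-119899576, plus strand) had 14.9 TPM in replicate 1 from 1564 counts and 13.9 TPM in replicate 2 from 2333, a mean of 14.4 ± 0.721 (SD, n = 2). Rictor (chr15:6708379-6800401, plus strand) had 9.79 TPM in replicate 1 from 1974 counts and 9.10 TPM in replicate 2 from 3216, a mean of 9.45 ± 0.488 (SD, n = 2). For each gene the deposited intervals of the libraries overlapped. At the level of whole genes, Rptor was 1.52 times Rictor in replicate 1 (1.43 to 1.63) and 1.53 times in replicate 2 (1.45 to 1.61). It was 1.29 times Mtor in replicate 1 and 1.12 times in replicate 2, while Rictor was 0.848 times Mtor in replicate 1 and 0.731 times in replicate 2. The order of Rptor over Rictor and Mtor was the same in both libraries for all transcripts together and did not hold for protein-coding transcripts alone. By the rule of deposited intervals, Rptor was apart from Rictor but not from Mtor, since the intervals of Rptor and Mtor overlapped in replicate 2.

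Of the TSC genes, Tsc1 (chr2:28641228-28691167, plus strand), which codes for hamartin, the stabilising partner, had 13.2 TPM in replicate 1 from 1432 counts and 9.43 TPM in replicate 2 from 1925, a mean of 11.3 ± 2.67 (SD, n = 2). Tsc2 (chr17:24595816-24632630, minus strand), which codes for tuberin, the GTPase-activating partner, had 12.9 TPM in replicate 1 from 1664 counts and 15.9 TPM in replicate 2 from 3604, a mean of 14.4 ± 2.16 (SD, n = 2). The partners differed in opposite directions, Tsc1 higher in replicate 1 and Tsc2 higher in replicate 2, and neither gene's deposited intervals overlapped between libraries. Tsc2 was 0.975 times Tsc1 in replicate 1 (0.908 to 1.05) and 1.69 times in replicate 2 (1.6 to 1.79). Tsc2 meets Pkd1, on the opposite strand, at its 3′ end; Pkd1 had 5.39 TPM in replicate 1 and 3.96 in replicate 2, and whether counting used strand is not given in the sources used here.

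Ddit4 (chr10:59949669-59951834, minus strand), the stress-induced inhibitor of mTORC1, was lowest, at 0.85 TPM in replicate 1 from 29 counts and 1.48 TPM in replicate 2 from 87, a mean of 1.17 ± 0.445 (SD, n = 2). Replicate 2 was higher, and the intervals of 0.552 to 1.15 TPM in replicate 1 and 1.16 to 1.76 TPM in replicate 2 only just failed to overlap. Tsc2, through whose complex Ddit4 acts, was 15.2 times Ddit4 in replicate 1 (10.5 to 22.7) and 10.8 times in replicate 2 (8.71 to 13.5). With the fewest counts, Ddit4 was the least precisely measured member.

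Much of the Rptor level came from transcripts not annotated as coding. The deposited tables split the members into 41 transcripts, of which 10 were at 0 TPM in both libraries; 4 members (Foxo1, Rictor, Tsc2 and Ddit4) had 1 transcript and so could show no split. Rptor-211, annotated as a target of nonsense-mediated decay, in which messages with an early stop are degraded, led Rptor in both libraries with 37.94% of its TPM in replicate 1 and 29.79% in replicate 2. The full coding Rptor-201 held 23.57% in replicate 1 and 13.18% in replicate 2. Transcripts annotated as retained intron made up 37.9% in replicate 1 and 54% in replicate 2. The libraries are of total RNA, and whether reads given to retained-intron transcripts, of Rptor or of Tsc1, came from finished messages was not tested. The percentages are shares of TPM, in which short transcripts weigh more than in reads. Rptor-212, a retained-intron transcript of 566 bases, held 8.34% in replicate 1 from 11.76 expected counts. By expected counts, Rptor-201 and Rptor-211 together held 79.6% of the gene's counts in replicate 1 and 60.4% in replicate 2. Protein-coding transcripts of Rptor thus came to 3.52 TPM in replicate 1 and 1.83 in replicate 2.

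Restricted to protein-coding transcripts, Rptor was 0.36 times Rictor in replicate 1 and 0.201 times in replicate 2, and 0.307 times Mtor in replicate 1 and 0.151 times in replicate 2. This turned the order of whole genes round. The comparison is uneven, since Rptor had 12 annotated transcripts in the tables and Rictor 1, although GENCODE M21 lists 5 for Rictor. Rptor-201 and Rptor-211 together, which cover nearly the same exons, came to 9.18 TPM in replicate 1 and 5.97 in replicate 2, and Rictor was 1.07 times that sum in replicate 1 and 1.52 times in replicate 2. Besides exon 10, Rptor-211 starts 549 bases later and ends 169 bases further than Rptor-201, and which of these differences set its share was not tested. Of the 5 members with several transcripts and 5 TPM in both libraries, Rptor was the only one with under 50% of its TPM in protein-coding transcripts in both, 1 of 5 against 13.4% of 5267 genes of that kind.

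**Figure D2:**
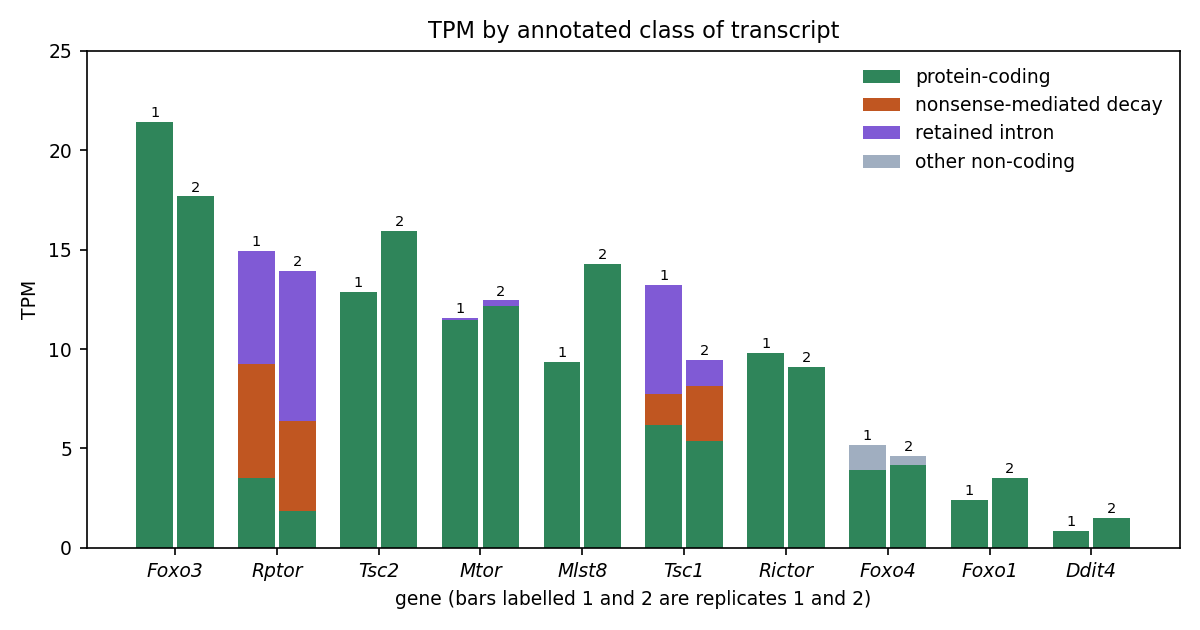
TPM of each member divided by the annotated class of its transcripts, as stacked bars for replicate 1 and replicate 2. Rptor has 3.52 TPM in replicate 1 and 1.83 in replicate 2 in protein-coding transcripts, and Tsc1 is the other member with large parts in the nonsense-mediated decay and retained intron classes.

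By TPM, the leading transcript of Tsc1 differed between the libraries. A retained-intron transcript of 2388 bases held 34.94% of its TPM in replicate 1 and 4.07% in replicate 2, and a coding transcript of 7595 bases held 31.76% in replicate 1 and 55.43% in replicate 2. By expected counts the coding transcript led in both, with 687.8 or 48% of the gene's counts in replicate 1 and 1499.54 or 77.9% in replicate 2, against 228.46 counts in replicate 1 and 32.96 in replicate 2 for the shorter retained-intron one. Another coding transcript, of 7682 bases and starting 17324 bases upstream of it, held 14.85% in replicate 1 and 0% in replicate 2. A nonsense-mediated decay transcript of 1711 bases held 4.19% in replicate 1 and 24.1% in replicate 2. In coding transcripts alone Tsc1 had 6.16 TPM in replicate 1 and 5.37 in replicate 2, a mean of 5.77 ± 0.559 (SD, n = 2), closer between libraries than the whole gene. On that scale Tsc2 was 2.09 times Tsc1 in replicate 1 and 2.97 times in replicate 2, with Tsc2 counted through 1 transcript in the tables where GENCODE M21 lists 22.

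**Figure D3:**
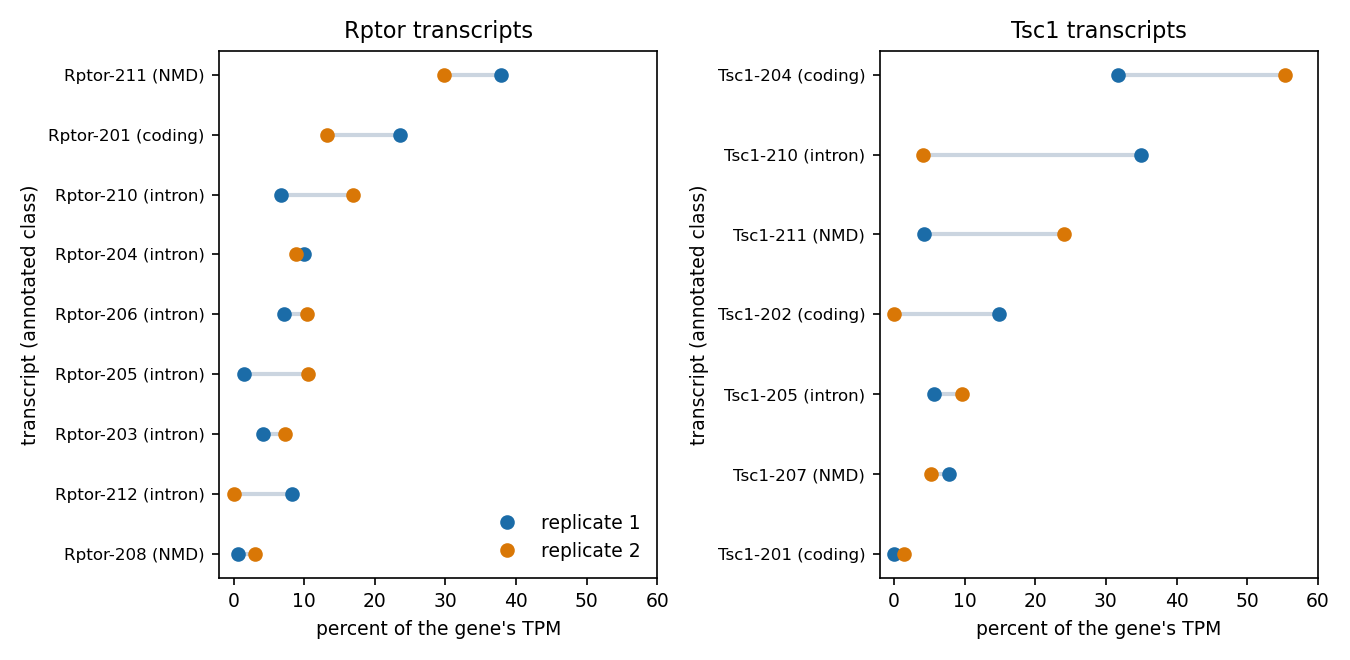
Percent of the gene's TPM in each transcript of Rptor (left) and Tsc1 (right) that reached 1% in either library, with points for replicate 1 and replicate 2 joined by a line. Rptor-211 leads in both libraries, whereas the Tsc1 retained-intron transcript in the second row holds 34.94% in replicate 1 and 4.07% in replicate 2.

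Mtor-202 held 62.65% of Mtor TPM in replicate 1 and 71.86% in replicate 2, and the short Mtor-201 held 36.83% in replicate 1 and 25.8% in replicate 2. The share of Mtor-201 rested on few reads, 80.94 expected counts or 5.69% of the gene's counts in replicate 1 and 103.78 or 3.43% in replicate 2, which its length of 1003 bases turns into a larger share of TPM. Mtor-202 alone stood at 7.23 TPM in replicate 1 and 8.94 in replicate 2, and Rictor was 1.35 times that in replicate 1 and 1.02 times in replicate 2.

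Foxo3 was led by its transcript of 6848 bases with 94.03% in replicate 1 and 88.14% in replicate 2. A transcript of 1316 bases, whose annotated coding sequence is 732 bases against 2016 in the leading one, held 5.37% in replicate 1 and 11.39% in replicate 2. The leading coding transcript of Foxo4 held 74.85% in replicate 1 and 90.67% in replicate 2, with a non-coding one of 1030 bases at 24.85% in replicate 1 and 9.33% in replicate 2. That share rested on few reads, 25.33 of the gene's 284 counts in replicate 1 and 14.32 of 497 in replicate 2. The Mlst8 transcript of 3361 bases was given 100% in both libraries by the deposited TPM. The authors' posterior mean gave it 67.22% in replicate 1 and 93.94% in replicate 2, with the rest on one of 3366 bases that has a coding sequence of the same 978 bases. Among the 5 members with several transcripts and 5 TPM in both libraries the leading transcript by TPM was the same for 4, against 73.6% of such genes. Expected counts of the whole gene were whole numbers (within 0.005) in both libraries for 10 of 10 members, against 89.0% of genes with a mean of at least 1 TPM.

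Between the libraries the members differed about as much as other genes. The difference was log2(TPM + 1), replicate 1 minus replicate 2, less its median of -0.18 over 9982 protein-coding nuclear genes with a mean of at least 1 TPM. The pseudocount of 1 understates the differences of low genes such as Ddit4. The median size was 0.28 for the members and 0.28 for all those genes, and 0 of 10 members passed a 2-fold difference, against 6.63% of genes. The positive differences were 0.63 for Tsc1, 0.44 for Foxo3, 0.32 for Foxo4, 0.28 for Rptor, 0.28 for Rictor and 0.08 for Mtor. The negative ones were -0.38 for Mlst8, -0.24 for Ddit4, -0.21 for Foxo1 and -0.11 for Tsc2.

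The TPM ratios of replicate 1 over replicate 2 that follow are not shifted by the median of all genes. Mtor therefore lies under 1 here, while its shifted difference was 0.08. The 95% counting interval of the ratio excluded 1 for 9 of 10 members, the exception being Foxo4 at 1.13 (0.972 to 1.31). The share of all genes whose interval excludes 1 was not computed, so that count shows nothing particular to the members. The ratio was 1.4 for Tsc1 (1.31 to 1.5) and 1.21 for Foxo3 (1.16 to 1.27). It was 0.654 for Mlst8 (0.597 to 0.716), 0.696 for Foxo1 (0.623 to 0.777), 0.808 for Tsc2 (0.762 to 0.857) and 0.574 for Ddit4 (0.364 to 0.883). Rptor at 1.07 (1.01 to 1.14), Rictor at 1.08 (1.02 to 1.14) and Mtor at 0.927 (0.87 to 0.988) lay nearest to 1. These intervals leave out all variation between samples of 100 cells, so they say nothing of biological spread.

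**Figure D4:**
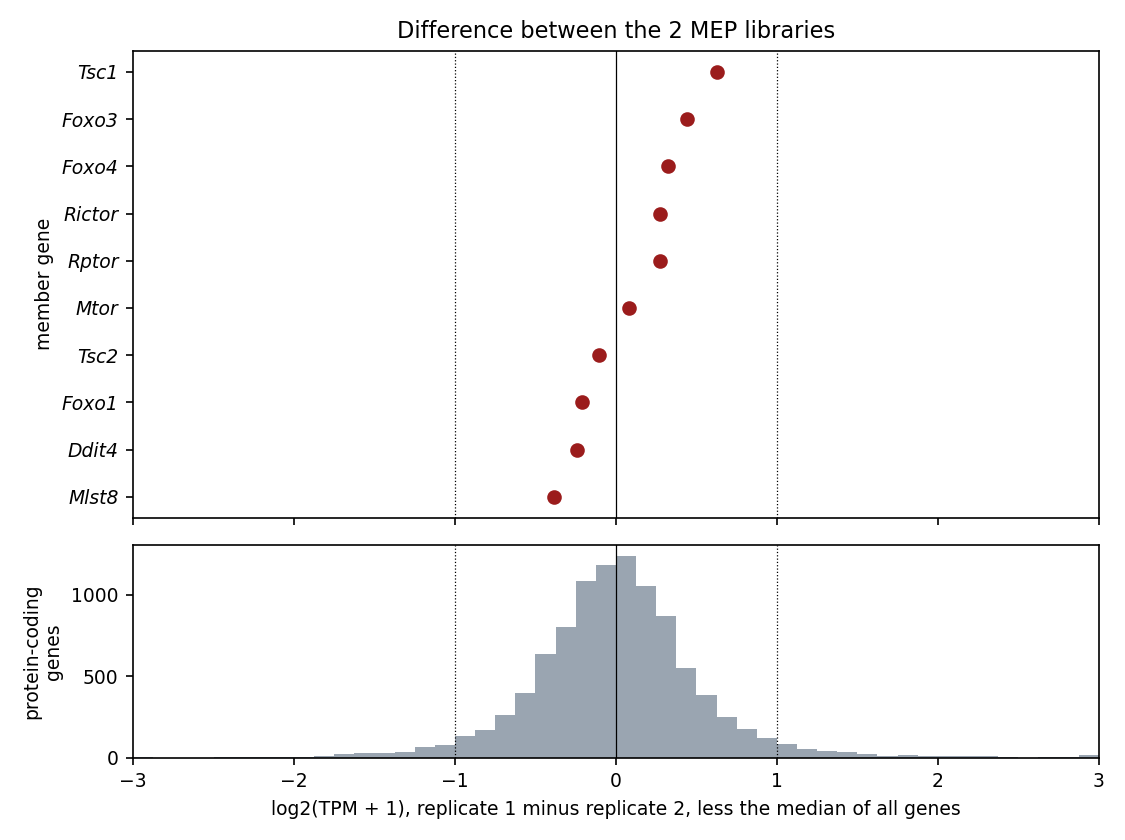
Upper panel, difference of each member in log2(TPM + 1), replicate 1 minus replicate 2, less the median of all genes; lower panel, the same for 9982 protein-coding genes, with values beyond the axis placed in the end bins. Dotted lines mark a 2-fold difference, which 0 of 10 members pass, and the members lie between -0.38 for Mlst8 and 0.63 for Tsc1.

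Values of the other pathway genes are means with the SD over the 2 libraries, and their lists were counted at 10 TPM in both libraries. Each count below stands against 24.7% of all protein-coding nuclear genes at that level. Upstream of the FOXO factors, 7 of 17 genes of the PI3K-AKT and SGK list reached that level. The kinase genes Akt1, at 48.3 ± 1.1 TPM, and Akt2, at 28.1 ± 1.43 TPM, led with the PI3K regulatory subunit Pik3r1, at 25.03 ± 3.95 TPM. Pik3r3, another regulatory subunit, had 0.205 ± 0.0636 TPM. Irs1, an insulin receptor substrate, was at 0 in both libraries, which allows up to 0.0151 TPM in replicate 1 and 0.00864 in replicate 2. The kinase gene Sgk2 was also at 0 in both, which allows up to 0.0709 TPM in replicate 1 and 0.041 in replicate 2. Among the antagonists of the pathway, the phosphatase gene Inpp5d (SHIP1, the blood cell form) had 40.75 ± 6.86 TPM. The PI3K inhibitor Pik3ip1 had 6.54 ± 4.39 TPM and the phosphatase Inpp4b 0.505 ± 0.0636 TPM.

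The 14-3-3 genes were abundant. Of these, 6 of 7 were at 10 TPM, and the median was 89.1 TPM for replicate 1 and 79.7 TPM for replicate 2. Ywhae had 164.7 ± 30 TPM, Ywhah 120.6 ± 32.5 TPM and Ywhaz 120.1 ± 8.68 TPM. Other FOXO regulators reached 10 TPM for 8 of 9 matched genes, led by the deubiquitinase Usp7 at 94.56 ± 3.56 TPM, the nuclear exporter Xpo1 at 54.44 ± 5.99 TPM and the deacetylase Sirt2 at 42 ± 3.05 TPM.

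Of 24 known FOXO target genes, taken from work in several cell types and including Rictor, 6 reached 10 TPM in both libraries. That share is close to the 24.7% of all protein-coding nuclear genes. The highest were Txnip, a thioredoxin inhibitor, at 114.3 ± 7.81 TPM, and the antioxidant enzymes Cat at 36.22 ± 1.76 TPM and Sod2 at 22.76 ± 3.28 TPM. Fbxo32, known from muscle atrophy, had 0.21 ± 0.184 TPM, the pseudokinase gene Trib3 0.245 ± 0.346 TPM and the repressor Bcl6 0.26 ± 0.339 TPM. The list does not separate targets by whether FOXO factors raise or lower them. The level of a target does not show FOXO activity, which depends on the phosphorylation and location of the protein and was not measured.

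Of 8 other subunits and assembly factors of the mTOR complexes, 4 reached 10 TPM. Telo2, which helps assemble kinases of the mTOR type, had 29.32 ± 10.2 TPM, Akt1s1 (PRAS40, an mTORC1 inhibitor) 14.99 ± 6.17 TPM and Mapkap1 (mSIN1, an mTORC2 subunit) 14.29 ± 1.63 TPM. Prr5, another mTORC2 subunit, had 0.305 ± 0.361 TPM. Rheb, the GTPase that activates mTORC1, had 33.7 ± 9.28 TPM, its relative Rhebl1 8.23 ± 2.87 TPM and the remaining TSC complex subunit Tbc1d7 6.34 ± 3.63 TPM. At the lysosome, where amino acids bring mTORC1 to Rheb, 9 of 13 Rag, Ragulator and folliculin genes reached 10 TPM, led by Lamtor5 at 41.73 ± 4.08 TPM, Lamtor3 at 27.2 ± 0.431 TPM and Lamtor2 at 22.76 ± 7.99 TPM. The Rag GTPase gene Rragd was at 0 in both, which allows up to 0.0382 TPM in replicate 1 and 0.0219 in replicate 2.

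Among the GATOR, KICSTOR and amino acid sensor genes 6 of 16 reached 10 TPM. Sec13 had 59.57 ± 9.21 TPM and Seh1l 27.32 ± 1.29 TPM, both also parts of the nuclear pore, and Nprl3, of the GATOR1 inhibitor complex, 24.19 ± 3.86 TPM. The arginine sensor Castor1 had 0.295 ± 0.417 TPM. The list of mTORC1 substrates and outputs had 13 of 17 genes at 10 TPM, with a median of 20.6 TPM for replicate 1 and 23.2 TPM for replicate 2. Its highest genes were the ribosomal protein gene Rps6 at 1666 ± 123 TPM, the translation factor Eif4g1 at 124 ± 13.7 TPM and the translation repressor Eif4ebp2 at 102.5 ± 22.6 TPM.

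Of the AMPK and LKB1 genes, which answer energy stress and act on TSC, 5 of 10 reached 10 TPM, led by Stk11 (LKB1) at 67.12 ± 18.7 TPM and the AMPK subunits Prkab1 at 62.55 ± 17.2 TPM and Prkag1 at 38.07 ± 18.4 TPM. The subunits Prkaa2, at 0.01 ± 0.0141 TPM, and Prkag3, at 0 in both libraries, were low; for Prkag3 this allows up to 0.0751 TPM in replicate 1 and 0.0435 in replicate 2. Of the Ddit4 paralog and known inducers of Ddit4, 3 of 6 reached 10 TPM: Trp53 at 141.3 ± 32.1 TPM, Atf4 at 73.26 ± 20.5 TPM and the glucocorticoid receptor gene Nr3c1 at 19.79 ± 2.94 TPM. The transcription factor gene Cebpb had 0.495 ± 0.148 TPM. The paralog Ddit4l was at 0 in both libraries, which allows up to 0.136 TPM in replicate 1 and 0.0797 in replicate 2.

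**Figure D5:**
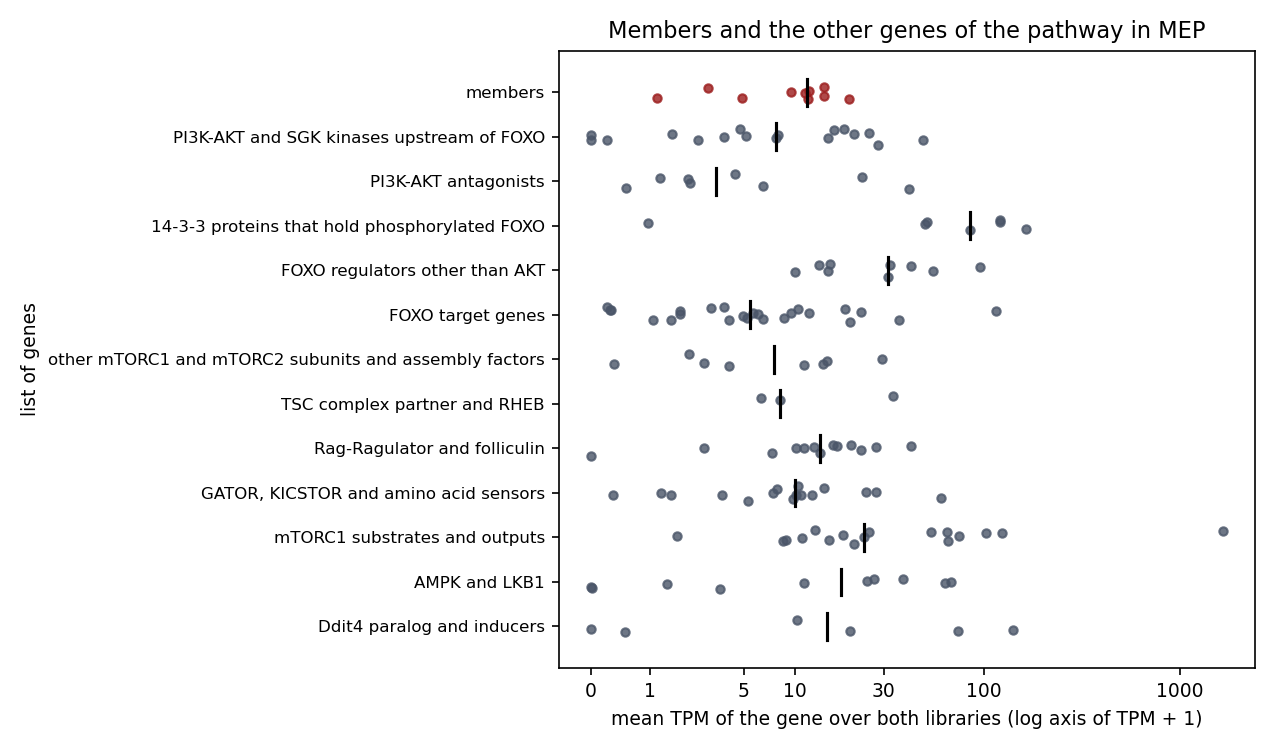
Mean TPM over both libraries of each member (top row) and of each gene of the pathway lists, on a log axis of TPM + 1, with a black line at the median of each list. The members lie between Ddit4 at 1.17 TPM and Foxo3 at 19.6 TPM, and the 14-3-3 list lies highest.

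The stretches upstream of the start sites of Foxo3, Foxo1 and Ddit4 are shown because these are the highest FOXO gene, its lowest measured paralog among the members, and the lowest member. They are from the RefSeq promoter table on GRCm38.p6, given on the strand of the gene. Each ends before the RefSeq start site and before every GENCODE M21 transcript start of the gene. Capitals mark the GC box letters GGGCGG, the CCAAT box letters CCAAT and the letters ACGTG, the core of the hypoxia response element, on either strand; none overlapped in these 3 stretches. Coordinates are chr10:42276756-42276945 (minus strand) for Foxo3, chr3:52268087-52268335 (plus strand) for Foxo1 and chr10:59951835-59952020 (minus strand) for Ddit4.
Foxo3 upstream: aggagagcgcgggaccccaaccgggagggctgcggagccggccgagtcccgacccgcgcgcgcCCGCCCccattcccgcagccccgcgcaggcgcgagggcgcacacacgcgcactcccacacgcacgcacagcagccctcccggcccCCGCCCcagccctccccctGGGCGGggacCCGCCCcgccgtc
Foxo1 upstream: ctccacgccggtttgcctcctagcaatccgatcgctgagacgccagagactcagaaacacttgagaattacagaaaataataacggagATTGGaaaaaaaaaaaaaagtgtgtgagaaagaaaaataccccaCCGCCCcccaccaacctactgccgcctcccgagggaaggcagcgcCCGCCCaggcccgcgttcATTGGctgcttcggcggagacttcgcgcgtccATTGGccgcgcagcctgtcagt
Ddit4 upstream: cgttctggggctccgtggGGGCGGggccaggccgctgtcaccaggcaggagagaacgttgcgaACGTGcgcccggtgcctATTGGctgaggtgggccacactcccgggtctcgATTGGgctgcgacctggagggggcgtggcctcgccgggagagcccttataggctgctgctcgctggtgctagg

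The table matched 9 of the 10 members, all but Foxo4. Letters were counted in the 250 bases before the RefSeq start site, which reach further downstream than the printed stretches. For Foxo3 that window held 5 matches of GGGCGG, against 4 in the printed stretch. GGGCGG was found in 5 of 9 members, against 32.7% of 32851 promoters, and CCAAT in 4 of 9, against 33.8%. ACGTG was found in 2 of 9, Rptor and Ddit4, against 16.6% of promoters. The letters AGATAA, known to be bound by the erythroid factor Gata1, were found in 1 of 9, Tsc1, against 9.99% of promoters. The FOXO core GTAAACA was found in 0 of 9, against 3.17% of promoters. These are matches of letters in a short window and were not tested as binding sites.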

How the data were processed

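Total RNA above 200 bases was sequenced in 2 MEP libraries of 100 cells each, per the labels. The authors quantified genes and transcripts against mm10 and GENCODE M4, per the README deposited with the tables; the quantifier's version is not given in the sources used here. Deposited expected counts are estimated reads per gene or transcript and need not be whole. The authors scaled the deposited TPM for effective length over all features, non-coding RNA included, so the share of other RNA moves it. The authors' percent column is a transcript's share of its gene's TPM, and the deposited signal columns used are bounds of credibility intervals of TPM.

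GENCODE M21 gave names, biotypes and coordinates by identifier: of 43346 genes, 42462 matched and 884 did not. The members and the 13 pathway and 6 marker lists were chosen with earlier results of these data known; Prmt1 and Samtor were not matched by name. All members were described, and of each pathway list the 3 highest genes by mean TPM, those under 1 TPM in both libraries, and any with a mean of at least 5 TPM and a log2 difference of at least 1.5 (none) were named, except 1 gene that is not reported here; Gata1, the marker genes at 0, Gm38034 and Pkd1 were named after their values were seen. Over 14213 genes the chi-square between libraries was 78.8 per degree of freedom, far above sampling noise, so they were counted as 2. The libraries differ in depth and protein-coding share (45% of counts in replicate 1 and 50.1% in replicate 2).

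Counting intervals are exact Clopper-Pearson intervals at 95% on rounded expected counts, and 0 was read as up to 3 counts; reads are not independent molecules, so both cover counting error only. No p-value was computed. The count ratio steps were tested on simulated data. Alternatives included scaling by TMM (edgeR 4.0.16) and by DESeq2 size factors (version 1.42.0), both in R 4.3.3. Values were computed in Python 3.11.15 with pandas 2.3.3, numpy 2.4.6 and scipy 1.17.1, and plotted with matplotlib 3.10.9.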

Additional observations from a re-analysis of the deposited data

How the results depend on the processing

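The number of members at 10 TPM in both libraries, 4, followed the minimum and the scale by construction. It was 9 at a minimum of 1 TPM, 7 at 5 TPM, and 8 when TPM was taken over protein-coding nuclear genes only, which raises every level. Counting protein-coding transcripts only gave 3, without Rptor. No member passed a 2-fold difference under any of the 6 settings of scaling, pseudocount, TPM estimate or filter. From 4.33% to 10.2% of all genes did so, depending on the setting, so 0 of 10 is near that share. The sign of the difference between libraries held for every member except Mtor, which lay between -0.1 and 0.09. The median difference over all genes was -0.01 under TMM and under size factors, against -0.18 for TPM. Counting protein-coding transcripts only, an alternative chosen after seeing the data, reversed Rptor over Rictor (geometric mean over libraries 1.53 for all transcripts and 0.269 for coding ones) and Rptor over Mtor (1.2 for all transcripts and 0.215 for coding ones); the restriction removes the other Rptor transcripts by construction, and Rictor has 1 transcript in the tables. Leaving out a library turned the whole-gene ratios of Mlst8 to Mtor, which ranged from 0.809 to 1.15, and of Tsc2 to Tsc1, which ranged from 0.975 to 1.69. The cause was not tested. Posterior mean TPM left 10 of 10 levels within the spread between libraries. Levels without one library lie within that spread by construction, so they say nothing of stability. No paired analysis was possible because there is 1 group. Ddit4, with 29 counts in replicate 1 and 87 in replicate 2, is the member most limited by depth, and 2 libraries from 1 donor record give no measure of variation between animals.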
